A study of Homo sapiens with 18 samples.

Results

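Messenger RNA of the SPARC family of matricellular proteins was followed in HCT116, a human colorectal carcinoma line, whose cells carried an edited gene for IκBα, the inhibitor that holds NF-κB in the cytoplasm. The members were SPARC, SPARCL1, SMOC1, SMOC2, SPOCK1, SPOCK2, SPOCK3 and the tenascin gene TNC, 8 of the 61552 genes in the table of raw read counts, found by gene symbol. They were chosen by the opposite directions in which the counts of SPARC and SPARCL1 moved in 1 of the mutants, M3. For that reason the levels in M3 are described here against those in the other genotypes without a test. N108 was tested against WT, TNF within each genotype, and the difference in TNF response between each mutant and WT.

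All cells were knock-ins of an IκBα-SOF allele (the labels do not spell out SOF). WT cells carried the wild-type sequence, N108 cells the mutant named for residue 108, and M3 cells alanine in place of residues H84, E85 and E86. Each genotype was sequenced untreated and after 40 min of human TNFα (0.1 µg/mL). The 6 groups had 3 replicate libraries each, 18 in all. The labels do not say whether the replicates were separate cultures, so p-values measure the spread between libraries, which may be technical. Nor do they say how many edited lines stand behind a genotype, so that the mutation and the line that carries it cannot be told apart.

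Library totals ran from 49021907 to 76947190 counts. After a filter on low counts 19038 genes were tested, among them 6 of the 8 members; SMOC1 and SMOC2 did not pass. NFKBIA, which encodes IκBα, lay at 91.6, 30.3 and 77.9 CPM (counts scaled to a common library size with TMM factors) in untreated WT, N108 and M3 cells, and TNF raised it in each genotype. Of 10 markers of colon epithelium, 9 reached 1 CPM in every group, with summed levels of 6710 to 7040 CPM in untreated WT, 5180 to 5460 in N108 and 4450 to 4790 in M3. Of 9 fibroblast markers, 2 reached 1 CPM in every group, and DCN and LUM were at 0 in all libraries. In untreated WT, N108 and M3 cells COL1A1 stood at 22.8, 28 and 31.7 CPM and COL3A1 at 4.34, 2.36 and 2.56.

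Matricellular proteins are secreted into the extracellular matrix, where they tune adhesion, growth factor signalling and matrix assembly rather than bear load. SPARC and its relative SPARCL1 share a follistatin-like domain and a calcium-binding domain that docks on collagen. SPARC is best known from bone and from the stroma around tumours, SPARCL1 (hevin) from astrocytes and blood vessel walls. The SPOCK genes encode testicans, which carry the same domains and glycosaminoglycan chains, and the SMOC genes encode modular calcium-binding proteins. Tenascin C, a large multi-armed glycoprotein of wounds and tumour stroma, is no relative by sequence and was grouped here as a fellow matricellular protein.

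SPARC and SPARCL1 exchanged places between WT and M3 cells. SPARC stood at 56.8, 57.6 and 56.9 CPM in the 3 untreated WT libraries, at 36.2, 34.0 and 39.5 in N108, and at 0.398, 0.358 and 0.473 in M3. With TNF it stood at 62.7, 60.6 and 70.0 CPM in WT, 40.6, 39.0 and 41.0 in N108, and 0.454, 0.472 and 0.434 in M3. All 6 WT libraries thus lay above all 6 N108 libraries, and these above all 6 M3 libraries. The M3 values came from 22 to 29 counts a library, against 2847 to 4413 in WT. In bulk RNA, fewer cells that make SPARC and less SPARC RNA in each cell cannot be told apart, and the same holds for every member below.

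SPARCL1 ran the other way. Its untreated libraries held 0.129, 0.107 and 0.1 CPM in WT, 0.537, 0.521 and 0.671 in N108, and 29.6, 29.7 and 31.3 in M3. With TNF the values were 0.0610, 0.149 and 0.0522 CPM in WT, 0.587, 0.771 and 0.433 in N108, and 31.8, 30.8 and 31.2 in M3. The genotypes did not overlap here either, in the reverse order. The WT values rested on 3 to 10 counts a library and the N108 values on 26 to 41, so their ratios are less precise than the M3 level, which rested on 1504 to 2029.

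**Figure D1:**
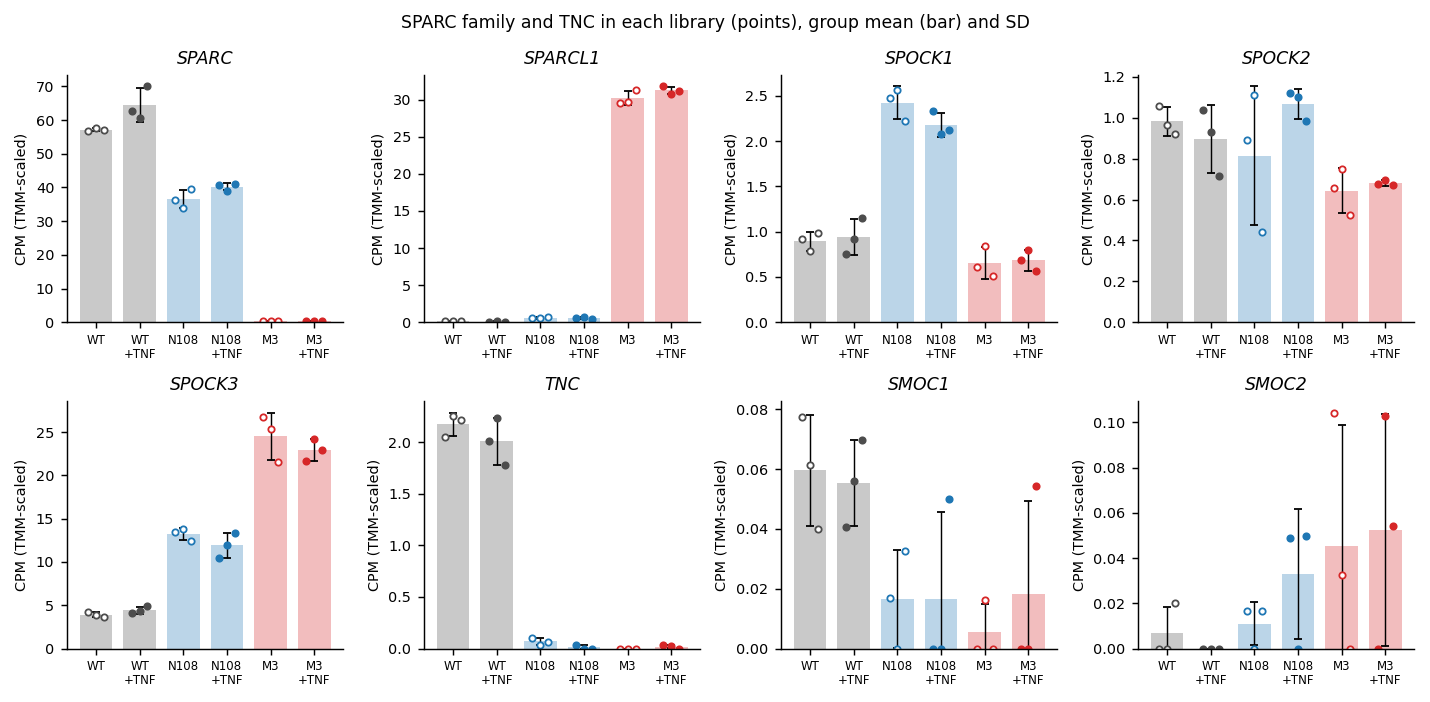
CPM (TMM-scaled) of the 8 members in each of the 18 libraries; points are libraries (open untreated, filled with TNF), bars are group means and whiskers the SD over 3 libraries, with a separate linear axis for each gene. SPARC falls from 57.1 CPM in untreated WT to 0.41 in M3 while SPARCL1 goes from 0.112 to 30.2, SPOCK3 climbs from WT to N108 to M3, and the SMOC genes stay at a few counts.

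On a scale per kilobase of exon (RPKM), which allows levels of different genes to be compared, SPARC was 318 to 410 times as abundant as SPARCL1 in untreated WT libraries and 42.4 to 48.6 times in N108. In M3 the ratio was 0.00867 to 0.0109. SPARC made up 97.3% to 99.9% of the RPKM of both genes in WT and N108 libraries and 0.859% to 1.09% in M3. The level of both together varied far less. Their summed RPKM was 11.9 ± 0.12 (SD, n = 3) in untreated WT, 7.73 ± 0.59 in N108 and 8.77 ± 0.29 in M3. With TNF the sum was 13.4 ± 1.00, 8.49 ± 0.18 and 9.09 ± 0.14 RPKM.

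**Figure D2:**
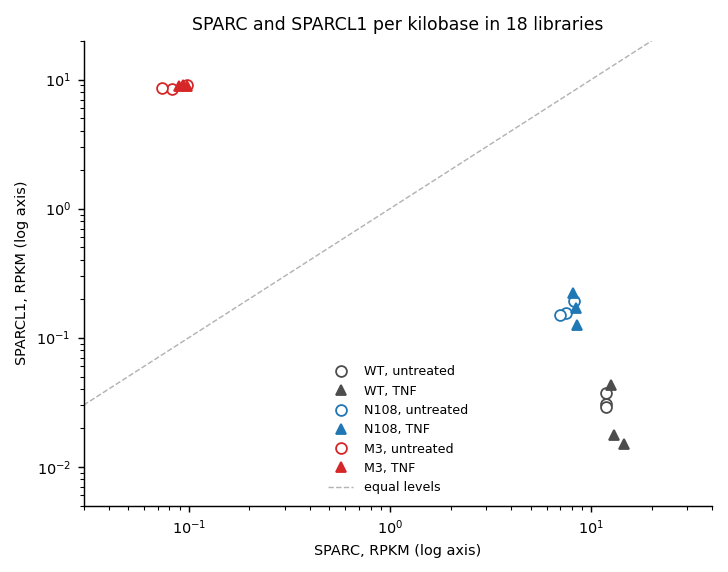
RPKM of SPARC against RPKM of SPARCL1 in the 18 libraries, both axes logarithmic; open circles are untreated, filled triangles TNF-treated, and the dashed line marks equal levels. WT and N108 libraries lie below the line and M3 libraries above it, with the N108 libraries displaced from WT toward M3 by lower SPARC and higher SPARCL1.

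The promoters of these genes are shown because the 3 members with the widest range between genotypes, SPARC, SPARCL1 and TNC, can be set side by side at the same distance from their start sites. RefSeq promoters (GRCh38.p14, 250 bases before to 50 after a start site) were found for 7 of the 8 members, SPOCK1 being the exception. The stretch from 35 to 6 bases before the start is printed 5′ to 3′ on the strand of the gene. GENCODE 29 exons of the same gene cover 300 of the 300 window bases for SPARC, 178 for SPARCL1 and 150 for TNC. All 3 printed stretches, with the CATTCC of SPARC and the TATAA of TNC, lie in these exonic bases. Capitals mark a TATAA box or CATTCC, the core of the TEAD motif.
SPARC, chr5:151686921-151686950, minus strand: tgtctctaaacccctccaCATTCCcgcggt
SPARCL1, chr4:87529382-87529411, minus strand: cgccaccagaattagctctttcccttttgg
TNC, chr9:115118163-115118192, minus strand: gctcgctaTATAAgccagccaaagttggct

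TNC had its TATAA 27 bases before the start, and SPARC had CATTCC 17 bases before it. The SPARCL1 core held neither set of letters. Farther upstream SPARCL1 had TTATAA, whose letters read as TATAA on both strands and therefore count as overlapping matches, at 161 and 160 bases before the start, and a further TATAA at 103. The stretch from 250 to 129 bases before the start, which lies outside GENCODE 29 exons, is printed with TTATAA in capitals.
SPARCL1 upstream, chr4:87529505-87529626, minus strand: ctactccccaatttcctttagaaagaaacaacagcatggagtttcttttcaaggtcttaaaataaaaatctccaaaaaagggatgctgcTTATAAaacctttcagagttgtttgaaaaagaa

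Among 35116 RefSeq promoters of 300 bases, searched on both strands, 20.4% held TATAA, 14.0% CATTCC, 7.7% the AP-1 letters TGANTCA and 12.9% the TCF/LEF letters CTTTGA. The NF-κB consensus was found in 11.3% of them, and among the members in SMOC1 and SMOC2, the members with the fewest counts. It lay 44 bases before the start in SMOC2 and 23 bases from it in SMOC1, the side not being recorded. No AP-1 match was present in the windows of the 7 members. The SPARCL1 window held 2 CG dinucleotides, and 11% of promoters had fewer. SPARC had 11 and TNC 18, against a median of 14 for all promoters. A match of letters is a description of the window and not a site shown to be used.

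Against WT, SPARC in M3 was 139-fold lower untreated (log2 fold change -7.12) and 142-fold lower with TNF (-7.15). SPARCL1 was 260-fold higher untreated (8.02) and 350-fold higher with TNF (8.45, or 9.07 without treated WT replicate 2, which held 8 of the 14 WT counts). These values chose the pair and are given as a description. SPARC ranked as the 26th lowest and SPARCL1 as the 5th highest of the 19038 log2 fold changes of untreated M3 against WT. In untreated cells at least a 2-fold difference either way was found for 4 of the 6 members that passed the filter. The share of all genes tested was 9.88%. With TNF the values were 4 of 6 members and 11.4% of all genes. SPARC and SPARCL1 are among the 4 through their choice. SPOCK3 and TNC are the others, and TNC passed the filter only through its WT libraries. Against M3, N108 cells held 89.0-fold more SPARC and 52.5-fold less SPARCL1 untreated, and 88.4-fold more and 52.9-fold less with TNF.

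N108 cells were tested against WT. They showed the same directions for the pair in smaller steps. The comparison shares its WT libraries with those of M3, and some of the WT values that chose the members also enter here. In untreated cells 42.4% of all genes tested were called at an adjusted p under 0.05 (20.9% higher and 21.6% lower). SPOCK1 and SPOCK3 were called higher and SPARC lower, while SPOCK2 was not called. With TNF SPOCK1 and SPOCK3 were again called higher and SPARC lower, against 46.7% of all genes (23% higher and 23.6% lower). SPARCL1 passed the low-count filter through its N108 and its M3 libraries, and TNC through its WT libraries. In each case these were only the groups where the gene was high, so both differences are given as values without a call.

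SPARC was 1.56-fold lower in untreated N108 cells, at 36.6 ± 2.76 against 57.1 ± 0.42 CPM (log2 fold change -0.64, SE 0.056, adjusted p = 3e-10 by edgeR's quasi-likelihood test with Benjamini-Hochberg adjustment, as for all adjusted p-values). With TNF it was 1.6-fold lower, at 40.2 ± 1.06 against 64.4 ± 4.95 CPM (-0.68, SE 0.056, adjusted p = 1.1e-10). Neither comparison had overlapping libraries. SPARCL1 was 4.95-fold higher untreated, at 0.576 ± 0.0821 against 0.112 ± 0.0149 CPM (2.31, SE 0.27). With TNF it was 6.61-fold higher, at 0.597 ± 0.169 against 0.0875 ± 0.0537 CPM (2.72, SE 0.31). This fold rests on 14 WT counts, and without treated WT replicate 2 the log2 fold change was 3.34. By rank among the genes tested, untreated SPARCL1 lay at percentile 3.17 in WT, 22.3 in N108 and 65.1 in M3.

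The order of SPARC levels, from the lowest, was M3 untreated, M3 with TNF, N108 untreated, N108 with TNF, WT untreated and WT with TNF. Within M3 and within N108 the treated and untreated libraries overlapped. In WT they did not overlap, but the difference did not pass the test. For SPARCL1 the order was WT with TNF, WT untreated, N108 untreated, N108 with TNF, M3 untreated and M3 with TNF, and within each genotype the libraries overlapped.

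**Figure D3:**
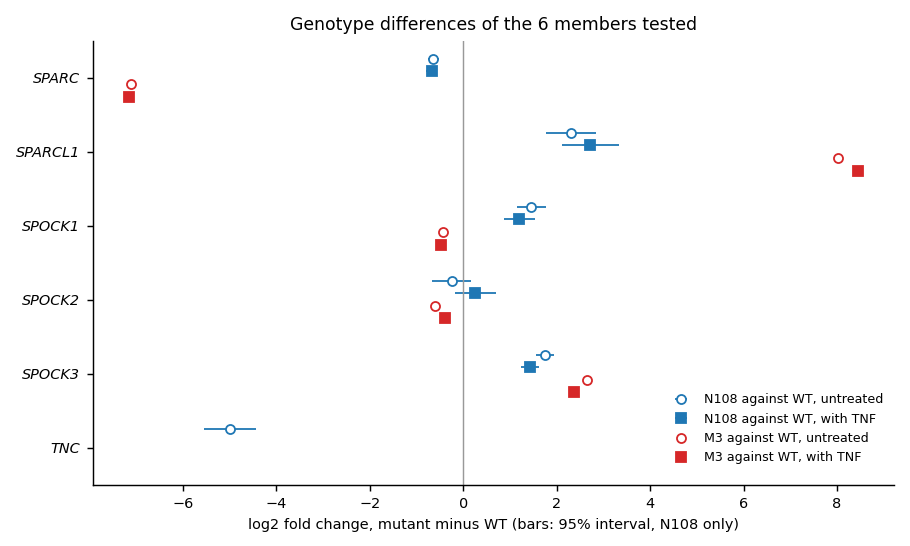
log2 fold change of the members that passed the low-count filter, mutant minus WT, untreated (open circles) and with TNF (filled squares); bars are 95% intervals for N108, and M3 is drawn without intervals because it chose the members. SPARC lies left of 0 and SPARCL1 and SPOCK3 right of 0 in both mutants, SPOCK1 lies right of 0 in N108 and left in M3, and TNC is drawn only for untreated N108 because the other groups held at most 3 counts.

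The testicans differed from one another. SPOCK3 encodes testican 3, which restrains the activation of a secreted matrix metalloproteinase by membrane-bound ones. It was at 4.2, 3.88 and 3.66 CPM in untreated WT, 13.4, 13.8 and 12.4 in N108 and 26.7, 25.4 and 21.5 in M3. With TNF it was at 4.09, 4.33 and 4.86 in WT, 10.5, 11.9 and 13.3 in N108 and 21.7, 24.2 and 22.9 in M3. As with SPARCL1, the genotypes did not overlap and N108 lay between WT and M3. SPOCK3 was 3.36-fold higher in untreated N108 than in WT (1.75 on the log2 scale, SE 0.095, adjusted p = 2.3e-14) and 2.68-fold higher with TNF (1.42, SE 0.098, adjusted p = 3.1e-12). In M3 it was 6.23-fold higher than in WT untreated and 5.16-fold higher with TNF. Per kilobase, SPOCK3 in untreated M3 reached 5.47 ± 0.608 RPKM, below SPARCL1 at 8.69 ± 0.27 RPKM in the same cells.

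SPOCK1, which encodes testican 1, an inhibitor of the protease cathepsin L, was highest in N108. Untreated libraries held 0.914, 0.783 and 0.980 CPM in WT, 2.48, 2.57 and 2.22 in N108 and 0.606, 0.845 and 0.508 in M3. With TNF they held 0.752, 0.915 and 1.15 in WT, 2.33, 2.08 and 2.12 in N108 and 0.689, 0.800 and 0.561 in M3. Each N108 library was above every WT and M3 library, whereas WT and M3 overlapped. The N108 level was 2.73-fold that of WT untreated (1.45 on the log2 scale, SE 0.16, adjusted p = 2.4e-08) and 2.3-fold with TNF (1.20, SE 0.17, adjusted p = 1.2e-06). In M3 against WT the log2 fold change was -0.43 untreated and -0.47 with TNF.

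SPOCK2, which encodes testican 2, was at 0.92 to 1.06 CPM in untreated WT, 0.442 to 1.11 in N108 and 0.526 to 0.748 in M3. It did not pass the test between N108 and WT. The log2 fold change was -0.25 (95% interval -0.67 to 0.17, adjusted p = 0.36) untreated and 0.26 (-0.17 to 0.70, adjusted p = 0.34) with TNF. The low end of the untreated N108 range was 1 library with 27 counts, and without it the untreated value was 0.03. M3 libraries lay below WT libraries in both conditions, with log2 fold changes of -0.61 and -0.39.

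TNC was nearly absent from both mutants. It held 159, 147 and 111 counts in the untreated WT libraries (2.05, 2.26 and 2.22 CPM) and 99, 120 and 102 with TNF. In N108 it held 6, 3 and 4 counts untreated and 2, 0 and 0 with TNF. In M3 it held 0 counts in each untreated library and 2, 1 and 0 with TNF. No mutant library came near a WT library. In untreated N108 the level was 31.9-fold lower than in WT (13 counts against 417, log2 fold change -5.00, SE 0.29). With TNF the N108 group held 2 counts against 321 in WT, a 174-fold ratio with a 95% counting interval of 47.7 to 1440. In untreated M3 the level was at least 127-fold lower than in WT, with a floor of 3 counts set for the whole group. With TNF the M3 group held 3 counts, a 112-fold ratio with an interval of 38.0 to 547. Without molecular identifiers reads can be copies of 1 molecule, so these intervals and the floor take in counting error alone.

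SMOC1 and SMOC2 were barely detected. SMOC1, an antagonist of bone morphogenetic protein signalling in development, totalled 12 and 9 counts in untreated and treated WT, 3 and 3 in N108 and 1 and 3 in M3. SMOC2, known as a marker of intestinal stem cells, totalled 1 and 0 counts in WT, 2 and 6 in N108 and 8 and 8 in M3. For SMOC1 the untreated ratio of WT to N108 was 4.1 with a 95% counting interval of 1.11 to 22.6. The lowest WT and the highest N108 library held 2 counts each, 0.04 and 0.0327 CPM. For SMOC2 with TNF, M3 was at least 2.54-fold higher than WT, but 1 of the 3 M3 libraries held no count. At this depth neither gene supports a comparison between groups.

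Across the 18 libraries, log2 CPM of SPARC and SPARCL1 had a Pearson correlation of -0.978, SPARCL1 and SPOCK3 one of 0.909, and SPOCK3 and TNC one of -0.943. SPARC and SPOCK1 reached 0.61. The libraries fall into 3 genotypes, which they share within these values, so the correlations restate the order of the genotypes and carry no p. FSTL1, a follistatin-like relative of SPARC that was not a member, was level throughout, with group means between 31.8 and 34.5 CPM. Its log2 fold change in untreated N108 against WT was 0.06 (SE 0.048, adjusted p = 0.32).

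TNF at 40 min called 0 of the 6 tested members in any genotype. The share of all genes called was 5.18% in WT, 1.2% in N108 and 1.38% in M3. At an unadjusted p under 0.05 the count of members was 1 in WT (SPARC), 2 in N108 (SPARC and TNC) and 1 in M3 (TNC), and DESeq2 called 0 in each genotype. TNC there rested on 13 untreated and 2 treated counts in N108 and on 0 and 3 in M3. NFKBIA, the gene of the edited inhibitor and itself an NF-κB target, rose 8.28-fold, 9.12-fold and 12.4-fold in WT, N108 and M3 cells (adjusted p = 2.8e-25, 1.2e-25 and 3.8e-27).

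In WT the log2 fold change of SPARC with TNF was 0.17 (95% interval 0.06 to 0.28, adjusted p = 0.07), and all 3 treated libraries lay above the 3 untreated ones. Without treated replicate 2 the adjusted p was 0.042. In N108 it was 0.14 (0.03 to 0.25, adjusted p = 0.26) and in M3 0.15 (-0.27 to 0.57, adjusted p = 0.9). SPARCL1 in M3, where it was abundant, had a log2 fold change of 0.05 (-0.08 to 0.18, adjusted p = 0.88). In WT, with 22 untreated and 14 treated counts, it had -0.38 (-1.25 to 0.50, adjusted p = 0.73). SPOCK3 stood at 0.17 (-0.04 to 0.39) in WT, -0.15 (-0.32 to 0.01) in N108 and -0.10 (-0.25 to 0.06) in M3, with adjusted p-values of 0.42, 0.38 and 0.77. The intervals of SPARC in WT and N108 and of SPARCL1 in M3 exclude a 2-fold response, which is 1 on the log2 scale.

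The test of whether TNF acted differently in a mutant than in WT called 0 of 6 members for N108 (2.62% of all genes) and 0 of 6 for M3 (0.315%), by edgeR and by DESeq2. At an unadjusted p under 0.05 there were 2 members for N108 (SPOCK3 and TNC) and 1 for M3 (TNC), with TNC resting on the same few counts. The SPARC term was -0.04 for N108 (95% interval -0.19 to 0.12, adjusted p = 0.85) and -0.03 for M3 (-0.47 to 0.42, adjusted p = 0.98). The SPOCK3 term for N108 was -0.33 (-0.60 to -0.05, adjusted p = 0.17). Without treated N108 replicate 3 it passed the threshold at -0.42 (adjusted p = 0.04). For NFKBIA, not a member, the term was 0.14 for N108 (adjusted p = 0.26) and 0.58 for M3 (adjusted p = 3.5e-05).

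**Figure D4:**
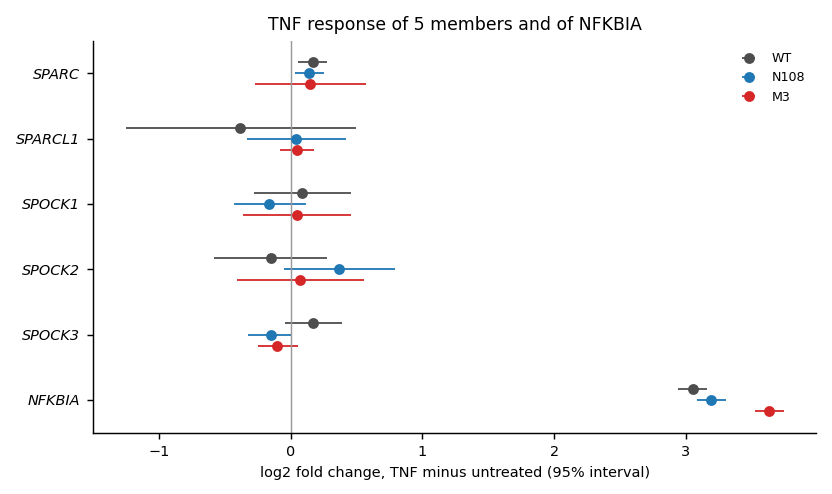
log2 fold change with TNF in WT, N108 and M3 for 5 members and for NFKBIA; bars are 95% intervals, and TNC is left out because its mutant groups held few counts or none. The members lie within 1 log2 unit of 0 in each genotype, while NFKBIA lies between 3.05 and 3.63.

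SPARC spans chr5:151661096-151687165 on the minus strand and SPARCL1 chr4:87473335-87531061, also minus (GENCODE 29, GRCh38), so the pair shares no locus. Of the 8 genes tested around SPARC, FAT2, ATOX1 and SLC36A1 were called lower in untreated N108, where 21.6% of all genes were. CLMAT3 passed the low-count filter only through its WT libraries and is given below without a call. FAT2, which encodes an atypical cadherin, went from 2.94 CPM in untreated WT to 0.73 in N108 (log2 fold change -1.98, adjusted p = 3e-10) and 0.447 in M3 (-2.70). The copper chaperone gene ATOX1 went from 34.1 to 24.0 (-0.51, adjusted p = 2.7e-07) and 15.7 CPM (-1.12). SLC36A1, a proton-coupled amino acid transporter gene, went from 28.6 to 21.3 (-0.42, adjusted p = 1.2e-07) and 12 CPM (-1.26). Untreated, GM2A, a lysosomal lipid-transfer gene, had log2 fold changes of -0.11 (adjusted p = 0.065) and -0.27. The pseudogene RPLP1P6 had -0.43 (adjusted p = 0.2) and -0.61. With TNF, GM2A was called lower in N108 (-0.28, adjusted p = 2.7e-05).

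CLMAT3, a noncoding gene on the other strand that overlaps SPARC, fell with it. It went from 0.322 CPM in untreated WT to 0.0537 in N108 and 0 in M3. Its log2 fold change in N108 was -2.61, given without a call because CLMAT3 passed the filter only through its WT libraries. Its reads and those of SPARC cannot be told apart if the counting ignored strand, a setting that no source used here gives. CLMAT3 held 125 counts over all libraries, and SPARC held 11012 in the untreated WT group. DELEC1, which overlaps TNC, had 15 counts in all.

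Of the 8 genes tested around SPARCL1, 3 were called higher in untreated N108, where 20.9% of all genes were. DMP1 and SPP1 encode secreted phosphoproteins of the same gene cluster as SPARCL1. DMP1 was at 0.0313 CPM in untreated WT, 0.0541 in N108 and 0.516 in M3, with log2 fold changes of 0.67 (adjusted p = 0.53) and 3.96. SPP1, osteopontin, had 2.06 CPM in WT, 2.77 in N108 (0.42, adjusted p = 0.012) and 6.99 in M3 (1.76). PKD2, a cation channel gene, was at 0.43 (adjusted p = 2.1e-06) and 0.53. HSD17B11, a steroid dehydrogenase gene, was at 0.18 (adjusted p = 0.034) and 0.76, and NUDT9, an ADP-ribose hydrolase gene, at 0.09 (adjusted p = 0.27) and 0.51. Untreated, KLHL8, HSD17B13 and HSP90AB3P lay between -0.15 and 0.29 in both mutants. With TNF, PKD2 (0.21, adjusted p = 0.0072) and HSD17B13 (0.72, adjusted p = 0.048) were called higher in N108, where 23% of all genes were. SPP1 (0.12, adjusted p = 0.53) and HSD17B11 (-0.09, adjusted p = 0.32) were not. No neighbour reached the size of the SPARCL1 difference.

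**Figure D5:**
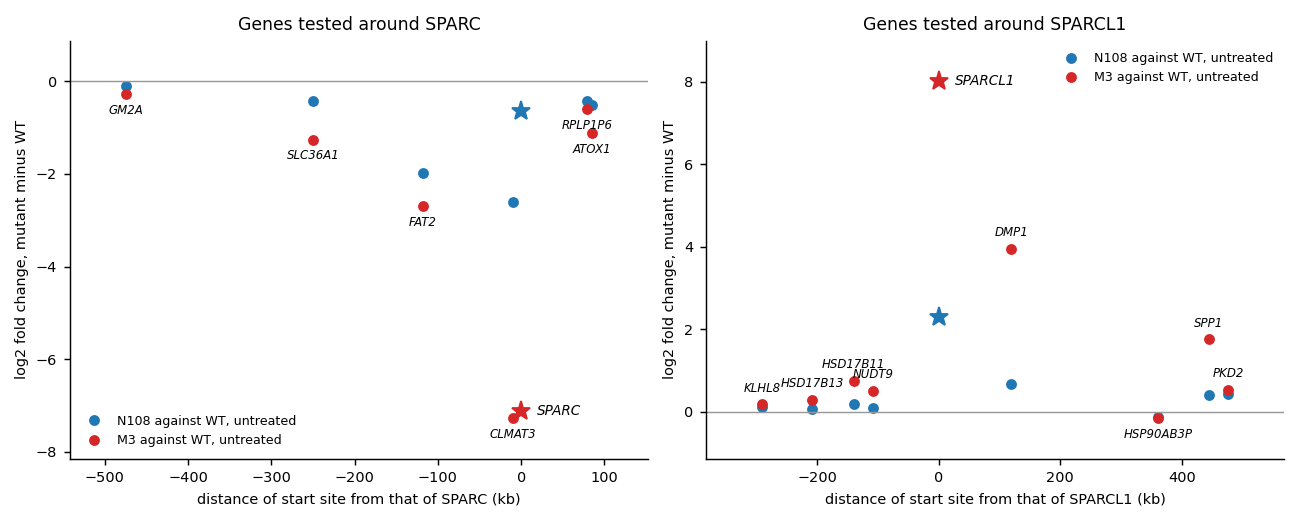
log2 fold change against WT, untreated, of the named genes tested nearest to SPARC (left) and SPARCL1 (right), plotted by the distance of their start sites in kb; blue is N108, red is M3 and stars are the pair itself. Around SPARC all points lie below 0, and CLMAT3, antisense to SPARC, lies beside it; around SPARCL1 DMP1 at 3.96 and SPP1 at 1.76 in M3 are the highest neighbours.

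The genes whose log2 CPM followed SPARC most closely by Pearson's r over the 18 libraries were YBX1 (0.9966), ASAP2, S100A10, PADI3 and WWC1. YBX1, an RNA- and DNA-binding protein gene, stood at 850 CPM in untreated WT, 840 in N108 and 370 in M3. For SPARCL1 they were OLFM2 (0.987), ZNF561, MMACHC, PRECSIT and MTCL1, with OLFM2, an olfactomedin gene, at 38.2, 47.5 and 72.2 CPM. For SPOCK1 they were CNTNAP2, KCND3, DPP4, RNF43 and PEG10. RNF43, a negative regulator of Wnt receptors, was at 4.63, 29 and 2.92 CPM. For SPOCK3 they were PLA2G7, CD24, RMDN1, TCF7L2 and PAM, with TCF7L2, a Wnt effector gene, at 104, 198 and 320 CPM. With Spearman's rho in place of Pearson's r, 0 of the 5 genes were shared for SPARC, SPARCL1, SPOCK1 or SPOCK3, so these names rest on the measure.

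Other matricellular genes did not move as 1 group. Of 27 listed, 18 were tested in untreated N108 against WT. Of these 4 were called higher and 5 lower, where 20.9% and 21.6% of all genes were. Their median log2 fold change was 0.02, against 0.005 for all genes. THBS1, thrombospondin 1, fell from 45.7 ± 0.78 to 14.6 ± 1.1 CPM (-1.65, adjusted p = 2.8e-18). CCN2 and CCN1, matricellular growth regulators, fell by 1.96 and 1.42 on the log2 scale. LGALS3, a galectin gene, rose by 0.41, and SPP1 is given above. With TNF 5 rose and 5 fell, with a median of -0.05 against 0.022, where 23% of all genes were called higher and 23.6% lower.

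Collagens and the enzymes that mature them, ligands and partners of SPARC, were split as well. Of 26 listed, 23 were tested, with 6 higher and 10 lower in untreated N108 (median -0.06), where 20.9% and 21.6% of all genes were. COL12A1, a fibril-associated collagen, fell from 215 ± 16 to 64.5 ± 2.1 CPM (-1.74, adjusted p = 5.6e-07), COL3A1 by 0.89 and COL6A1 by 0.42. The hydroxylase genes P4HA1, PLOD1 and PLOD2 rose by 1.10, 0.66 and 0.46. With TNF 8 rose and 7 fell (median 0.03), where 23% of all genes were called higher and 23.6% lower. COL1A1 rose by 0.95 and SERPINH1, the collagen chaperone, fell by 0.35.

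Of 23 receptors and surface partners, 17 were tested, with 5 higher and 4 lower (median 0.09). ITGA2, the collagen-binding integrin subunit, rose from 129 ± 4.2 to 314 ± 16 CPM (1.29, adjusted p = 9e-09), ITGA9, an integrin subunit that binds tenascin C, by 0.44, and ITGB1 by 0.34. ITGB5 fell by 0.62 and SDC4, a heparan sulfate proteoglycan, by 0.24. Of 19 enzymes that cleave or crosslink these proteins, 10 were tested, with 3 higher and 4 lower (median -0.18). TGM2, transglutaminase 2, fell from 77.3 ± 1.2 to 17.5 ± 1.1 CPM (-2.14, adjusted p = 1.8e-22) and PLAT, tissue plasminogen activator, by 1.56. CTSB and CTSL, cathepsin genes, rose by 0.18 and 0.17, and MMP7, matrilysin, fell by 0.58. The lists were not tested against the background of 42.4% of genes called.

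In WT, TNF called 5 of the 18 other matricellular genes tested, 2 of the 23 of the collagen list, 1 of the 17 receptors and partners and 1 of the 10 enzymes, where 5.18% of all genes were called. CCN1 rose from 25.7 ± 0.95 to 41.7 ± 7.3 CPM (0.70, adjusted p = 8.8e-07) and THBS1 by 0.22, while the fibulin gene EFEMP2 and the thrombospondin gene THBS3 fell by 0.85 and 0.46. SDC4 rose by 1.20, 1.17 and 1.58 in WT, N108 and M3 cells, and PLAU, urokinase, by 1.38, 1.15 and 1.19. The SDC4 response differed between M3 and WT by 0.38 (adjusted p = 0.017) and between N108 and WT by -0.03 (adjusted p = 0.88). COL7A1 and COL1A1 fell by 0.80 and 0.41 in WT. The difference between N108 and WT in their response was 0.89 for COL7A1 (adjusted p = 0.023) and 0.65 for COL1A1 (adjusted p = 0.0025). It was 1.06 for EFEMP2 (adjusted p = 0.0089) and 0.48 for THBS3 (adjusted p = 0.025). Between M3 and WT it was 0.84, 0.42, 0.54 and 0.38 for the same genes, none called (adjusted p = 0.074, 0.078, 0.47 and 0.18).

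Levels of markers of other cell types that are known to express these members were read in the same libraries. The summed level of 5 astrocyte markers was 5.33 to 5.8 CPM in untreated WT, 8.58 to 9.04 in N108 and 11.1 to 11.4 in M3. SLC1A3, a glutamate transporter gene, carried most of it, at 4.3, 7.57 and 10.3 CPM, and no other marker of the 5 reached 1 CPM. The order shared with SPARCL1 and SPOCK3 was thus that of SLC1A3 and not of the list. That of 7 endothelial markers was 1.94 to 2.27, 1.88 to 2.44 and 1.37 to 1.66 CPM, and that of 6 smooth muscle and pericyte markers 98.6 to 103, 90.7 to 96.1 and 86.1 to 91.9. The 9 fibroblast markers summed to 27.1 to 27.7, 29 to 31.9 and 31.2 to 36.9 CPM, mostly COL1A1. The 5 leukocyte markers summed to 2.58 to 3.13 CPM in WT, 0.169 to 0.218 in N108 and 0.293 to 0.649 in M3. Nearly all of it in WT was LYZ, the only 1 of the 5 to pass the low-count filter. The fall alongside TNC was thus that of LYZ and not of the list. Whether the RNAs of these lists have a part in the members' levels was not tested.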

How the data were processed

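Reads were paired, of 50 bases, from total RNA of 18 libraries, per the labels. The authors deposited raw read counts per gene. Their processing notes name hg38 as the build and, as tools, STAR 2.7.8 and Trim Galore 0.6.6, Subread 2.0.1 with its program featureCounts, and DESeq2 1.38.3; the sources used here state neither the annotation release nor the strand setting. A deposited normalized table was not used. Groups and replicate numbers came from the sample titles.

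Differences were tested with edgeR (version 4.0.16, R 4.3.3). The function filterByExpr, set to 10 counts, kept 19038 genes, which held 99.97% of all counts. Libraries were scaled by TMM, and a robust quasi-likelihood model held 6 group means with 12 residual degrees of freedom. Tests were two-sided, with Benjamini-Hochberg adjustment across all genes kept and a threshold of 0.05. Each SE was taken as the size of the log2 fold change divided by the root of the F statistic. In all 7 comparisons were tested, the TNF interaction with M3 among them, and 4, those of levels in M3 with levels in another genotype, were described. RPKM used exon lengths of GENCODE 29, and correlations used log2 CPM with a prior count of 2. The scripts were tested on simulated counts.

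Members, 10 gene lists (133 genes) and the other settings were chosen with earlier results of these data known. Named genes were all members, NFKBIA, and up to 3 called genes of each list in each direction by log2 fold change, if either group reached 1 CPM. To these came the 5 genes most like each member with a mean of at least 1 CPM, and the 4 nearest tested genes on either side of SPARC and SPARCL1, clone identifiers left out. FSTL1 was named in addition, as a relative of SPARC. Alternatives were DESeq2 1.42.0, 2 other scalings, 2 other filters, only the groups compared, a replicate block, removal of each library's GC trend, and leaving out each library. In the main model libraries were not paired by replicate number. 1 gene that this rule names is not reported here.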

Additional observations from a re-analysis of the deposited data

How the results depend on the processing

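In untreated cells and with TNF, SPARC, SPOCK1 and SPOCK3 in N108 against WT kept their direction and call under each alternative run. Runs that leave out 1 library are included. With TNF the SPARCL1 value ranged from 2.44 to 3.34, and in M3 against WT with TNF from 8.16 to 9.07. The count of members called for TNF in WT ranged from 0 to 1 when 1 library was left out, with SPARC called at 0.22 (adjusted p = 0.042) without treated WT replicate 2. The count for the TNF interaction with N108 ranged from 0 to 1, with SPOCK3 called at -0.42 without treated N108 replicate 3. Values near 0 changed sign. The SPARC interaction with M3 was 0.01 with library totals only and ranged from -0.12 to 0.09 with 1 library left out, and that with N108 was 0 with the GC trend removed and ranged from -0.09 to 0.03. With 1 library left out, SPOCK1 with TNF ranged from -0.09 to 0.22 in WT and from -0.10 to 0.28 in M3, and its interaction with M3 from -0.19 to 0.20. SPOCK2 with TNF in M3 ranged from -0.05 to 0.20 and SPOCK2 in untreated N108 against WT from -0.57 to 0.03. SPARCL1 with TNF in N108 ranged from -0.17 to 0.23, and TNC in N108 against M3 with TNF, on 2 and 3 counts, from -3.24 to 0.21. The causes were not tested. With the replicate number as a block, SPARC, SPOCK1 and SPOCK3 were again called for N108 against WT in either condition. For TNF 0 members were called in each genotype, and no call changed. Over 45 pairs of libraries with the same number in different groups, the correlation of their deviations ran from -0.516 to 0.395 with 13 over 0.1. The median was -0.018, against -0.012 for pairs with unlike numbers, so the numbers did not pair the libraries as a whole. Pairing of only some groups was not examined. Depth limits SMOC1 and SMOC2 in all groups, TNC in the mutants and SPARCL1 in WT.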
